A study of Homo sapiens with 44 samples.

Results

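Fibrillar collagen is made, hydroxylated and crosslinked by a small set of enzymes, of which 10 were followed here across the cytokine responses of Ccd18-Co, a fibroblast cell line from human colon. They are the lysyl oxidases LOX, LOXL1, LOXL2, LOXL3 and LOXL4, the lysyl hydroxylases PLOD1, PLOD2 and PLOD3, and the prolyl 4-hydroxylase subunits P4HA1 and P4HA2. The members were taken by symbol, and all 10 were found among the 40663 gene symbols of the table. RNA was sequenced in bulk from unstimulated cells and from cells stimulated for 24 h with 1 of 10 cytokines. These were TGF-β1, IL-13, TNF, oncostatin M (OSM), IL-17A, IFNγ, IFNα, IL-22 and IL-6, each at 10 ng/ml, and IL-1β at 0.1 ng/ml. The dose of IL-1β is the one in the sample labels, and a legend of the study gives a lower one. Each of the 11 groups had 4 libraries, 44 in all. All cells, controls included, were used at up to passage 20, grown in 20% serum and then kept without serum for 72 h before stimulation. Because 1 cell line was used and separate cultures are not described, the spread between replicates may be technical, and p-values measure that spread alone. In bulk RNA, fewer transcripts per cell and fewer cells with the transcript cannot be told apart.

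Inside the cell, lysyl hydroxylases and prolyl 4-hydroxylases modify collagen chains in the endoplasmic reticulum, and both need iron, ascorbate, oxygen and 2-oxoglutarate. Hydroxyproline holds the triple helix together, and hydroxylysine sets which type of crosslink can form. Outside the cell, the copper-dependent lysyl oxidases turn lysine and hydroxylysine of collagen and elastin into reactive aldehydes, which then join neighbouring molecules. Crosslinked collagen is stiff and is degraded slowly, which is why these enzymes are studied in intestinal fibrosis.

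Total counts were between 742173 and 2213424 per library (median 1480883). Levels are given as CPM, counts scaled to a common normalized library size, at which 3 counts correspond to 1.39 to 3.85 CPM. Of 11 fibroblast markers, 10 had over 3 counts in every library, whereas EPCAM, CDH1, KRT20, PTPRC, CD3E, MS4A1, PECAM1, CDH5 and KDR had at most 3 counts in every library. These are 3 of 7 epithelial, 3 of 6 immune and 3 of 4 endothelial markers, and the whole lists summed to 4.81 to 40.6, 0 to 73.8 and 0 to 2.65 CPM per library. The summed immune markers had group means from 1.78 CPM with IL-13 to 59.6 CPM with IFNα. Of 5 smooth muscle markers, which fibroblasts can also express, 3 had over 3 counts in every library, and their sum had group means from 402 CPM with IL-1β to 1810 CPM with IL-13. The part of these markers in the results was not tested. Libraries differed in base composition, measured as the mean log2 CPM of the genes above the upper GC quartile (51.9% GC) minus that of the genes below the lower one (40.3% GC). This GC tilt ran from -0.53 to 0.58 over the 44 libraries, each value relative to the mean over libraries. Its group means ran from -0.23 in unstimulated cells to 0.29 with IFNγ, so the tilt partly goes with the groups. It was computed from the same counts, and as a covariate it can raise or lower a cytokine fold change. Unstimulated replicate 1 stood apart at 0.31, against -0.43 to -0.40 in the other 3 unstimulated libraries. Calls of members and listed genes that ended when the tilt was added as a covariate, an alternative chosen after seeing the data, are named beside their values.

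The upstream sequences of LOX, PLOD2 and P4HA2 are shown because these genes passed the test against unstimulated cells. LOXL2, on chromosome 8, passed as well, but its upstream sequence was not analysed here. Each run is 250 bases of hg38 that precede the annotated exons at the gene's RefSeq start and overlap no annotated exon. Runs are written 5′ to 3′ on the minus strand, on which all 3 genes lie. The LOX run directly precedes the annotated gene. The PLOD2 and P4HA2 runs lie inside the annotated genes, which extend further upstream, to 146163725 and 132295315. Capitals mark the core of the hypoxia response element, searched as ACGTG or GCGTG on both strands. It was present in 43.2% of 35116 windows of the same length directly before RefSeq starts. The printed runs lie 155 (LOX), 522 (PLOD2) and 767 (P4HA2) bases upstream of the RefSeq start, at 56.4%, 48.8% and 77.2% GC. This share is therefore not a background for them. The LOX run is chr5:122078414-122078663, the PLOD2 run chr3:146161706-146161955 and the P4HA2 run chr5:132227858-132228107.
LOX: LOX
PLOD2: PLOD2
P4HA2: P4HA2
The core occurred 1 time in the LOX run, 2 times in the PLOD2 run and 4 times in the P4HA2 run. In the 250 bases directly before the RefSeq start, which partly overlap exons and are not printed, it occurred 4 times for LOX, 3 times for PLOD2, 2 times for PLOD1, 1 time for P4HA1 and 0 times for P4HA2, LOXL1, LOXL3, LOXL4 and PLOD3. A match of so short a motif describes letters and not binding.

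Unstimulated fibroblasts carried mainly PLOD2, P4HA1 and LOX transcripts. Per kilobase of the canonical transcript, the level of PLOD2 was 83.6 ± 24.1 CPM (SD, n = 4), that of P4HA1 76.8 ± 8.78 and that of LOX 60.4 ± 12.6. P4HA2 followed at 20.5 ± 9.95 CPM per kilobase and LOXL2 at 9.1 ± 1.33. PLOD1, the lysyl hydroxylase of the collagen triple helix, was at 3.9 ± 1.03 CPM per kilobase and LOXL1, an enzyme of elastic fibres, at 3.82 ± 0.287. PLOD3, LOXL3 and LOXL4 were at 1.22 ± 0.705, 0.659 ± 0.658 and 0.371 ± 0.327 CPM per kilobase. By this measure the fibroblasts carried 1 abundant lysyl oxidase, 1 abundant lysyl hydroxylase and both prolyl 4-hydroxylase subunits followed here, with P4HA1 above P4HA2. Transcripts of PLOD2, LOX and P4HA1 are 37.7%, 39.6% and 39.7% GC, and that of P4HA2 is 45% GC. Those of LOXL3, LOXL2, PLOD1, PLOD3 and LOXL1, at lower levels, are 55.4%, 57.5%, 58.8%, 61.4% and 67% GC. The part of base composition in this order of members was not tested. LOXL4 reached at most 9 counts in any library, was at 0 in all 4 TNF libraries and was the member that the filter on low counts removed, so 9 members were tested. LOXL3 passed the filter through 3 IL-13 libraries and 1 TGF-β1 library, so its presence among the tested genes already rested on where it was high.

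**Figure D1:**
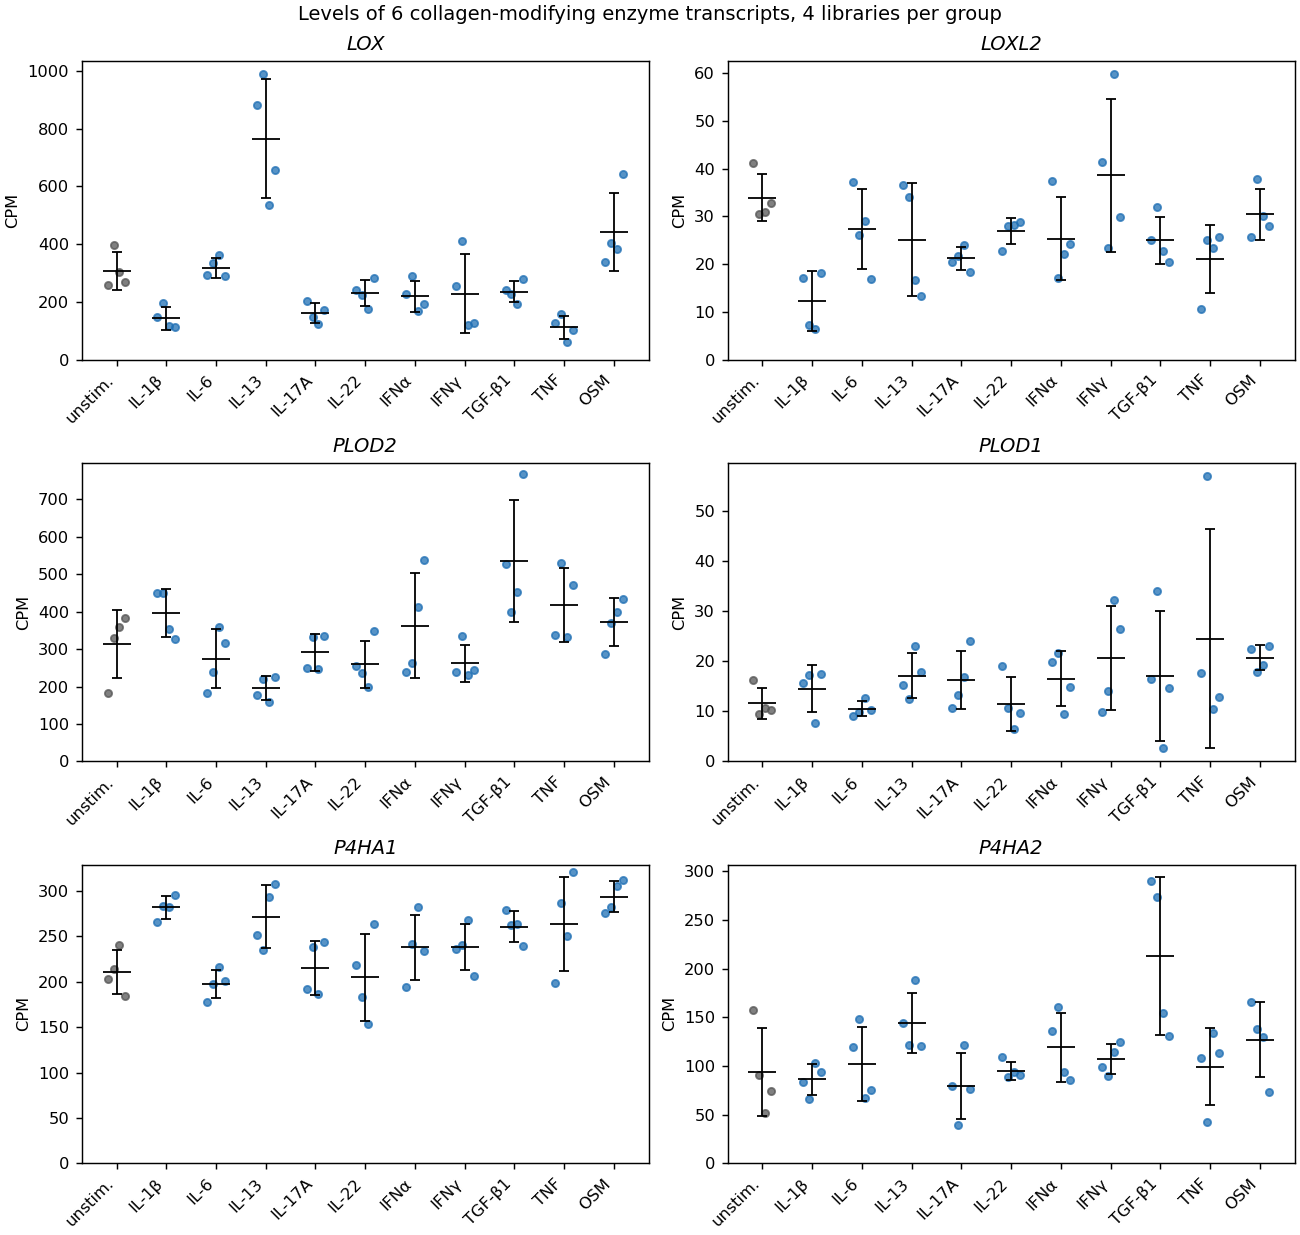
CPM of 6 enzyme transcripts (y axes, linear, starting at 0) in unstimulated cells and the 10 cytokine groups (x axes). Points are the 4 libraries of a group, gray for unstimulated and blue for cytokines, and black bars are the mean and SD. LOX ranged from a mean of 112 CPM with TNF to 765 CPM with IL-13, whereas the highest mean of P4HA1 was 1.48-fold its lowest.

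In the fit of all libraries, 4 of the 9 tested members, namely LOX, LOXL2, PLOD2 and P4HA2, passed with at least 1 cytokine. The calls were divided between cytokines. The share of all genes called with at least 1 cytokine was not counted, so the 4 of 9 says nothing about these enzymes as a set. Both calls with TGF-β1, of PLOD2 and P4HA2, were lost in some fits with fewer libraries, as given below. Against unstimulated cells, in the quasi-likelihood test of edgeR over 9513 genes, with Benjamini-Hochberg adjusted p-values, LOX rose with IL-13 (1 member called, against 3.93% of all genes) and fell with TNF (1 member called, 11.5% of genes). LOX and LOXL2 fell with IL-1β (2 members, 7.38% of genes), and PLOD2 and P4HA2 rose with TGF-β1 (2 members, 5.69% of genes). In the other 6 comparisons, 0 members passed, where the share of all genes called was 0.0105% for IL-6, 1.52% for IL-17A, 0% for IL-22, 9.85% for IFNα, 10.6% for IFNγ and 3.96% for OSM. For IL-6 and IL-22, with 1 and 0 genes called, 233 and 1037 genes had an unadjusted p under 0.05 in the same test. The median log2 fold change of the 9 members was between -0.35 with IL-17A and 0.55 with IL-13, beside medians of all genes between -0.05 and 0.00. A test over all 11 groups at once was passed by 35.7% of genes and by 5 members, LOX (adjusted p = 9.55e-11), PLOD2 (0.000146), P4HA2 (0.00692), P4HA1 (0.00756) and LOXL2 (0.0203). LOXL1, LOXL3, PLOD1 and PLOD3 did not pass it, with adjusted p of 0.19, 0.33, 0.405 and 0.193 in edgeR.

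**Figure D2:**
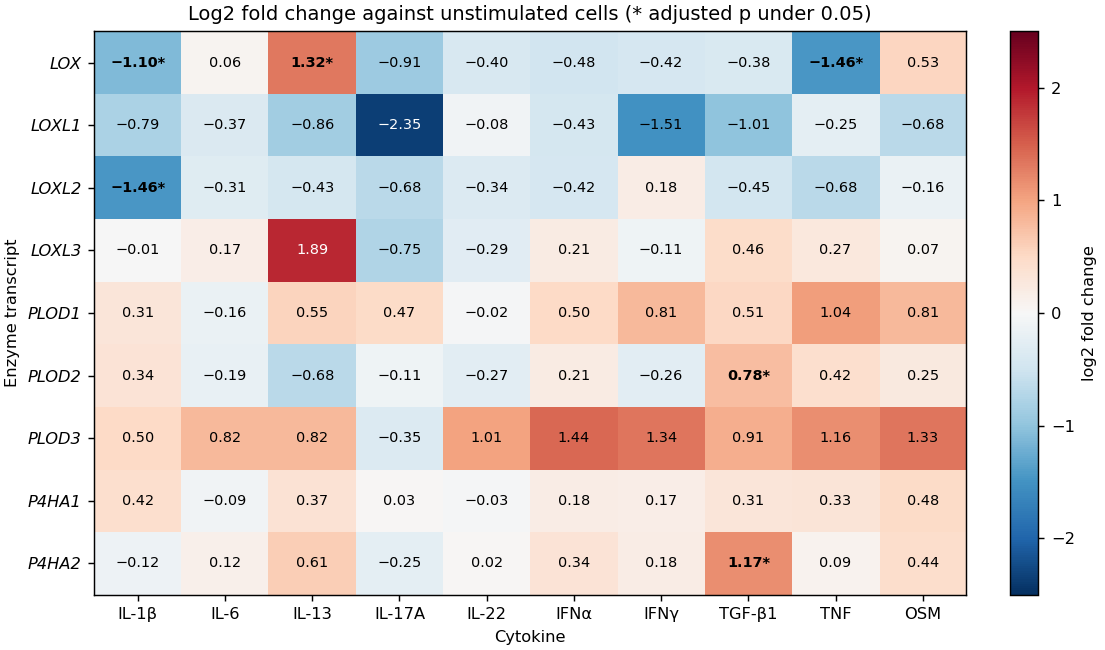
Log2 fold changes against unstimulated cells of the 9 tested members (rows) for 10 cytokines (columns), with red for higher and blue for lower levels. An asterisk marks an adjusted p under 0.05, which 6 of the cells carry, and the deep colors of LOXL1, LOXL3 and PLOD3 belong to transcripts of at most 25 counts per library.

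LOX, which encodes the founding member of the lysyl oxidase family (chromosome 5, 122063195 to 122078413, minus strand, 7 exons in the canonical transcript), had the widest span of any member with counts in every library. In unstimulated libraries, LOX was at 257, 398, 304 and 268 CPM. With IL-13, a type 2 cytokine, it was at 880, 987, 537 and 657 CPM, and every IL-13 library lay above every unstimulated one. The log2 fold change was 1.32 (SE 0.27, adjusted p = 0.00164 in edgeR), from 307 ± 64.1 to 765 ± 205 CPM (SD, n = 4 each).

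TNF and IL-1β moved LOX the other way. With TNF it was at 126, 157, 60.8 and 104 CPM and with IL-1β at 147, 198, 116 and 112 CPM. All 8 of these libraries lay below the unstimulated ones. Log2 fold changes were -1.46 (SE 0.28, adjusted p = 0.000215 in edgeR) for TNF and -1.10 (SE 0.28, adjusted p = 0.00645) for IL-1β. Between TNF and IL-1β, where 1.15% of genes and 0 members were called, the difference in LOX was -0.36 on the log2 scale (95% interval -0.91 to 0.19). IL-17A libraries, at 205, 147, 125 and 173 CPM, also lay below all unstimulated libraries, but the log2 fold change of -0.91 (SE 0.28) had an adjusted p of 0.0856 in edgeR. OSM libraries were at 339, 405, 382 and 641 CPM (log2 fold change 0.53, SE 0.27, adjusted p = 0.354 in edgeR).

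From the highest mean to the lowest, LOX ran from IL-13 (765 CPM) through OSM (442), IL-6 (319), unstimulated (307), TGF-β1 (235), IL-22 (231), IFNγ (229), IFNα (219), IL-17A (162) and IL-1β (143) to TNF (112). No neighbours in this order were separated by their libraries, and the highest mean was 6.83-fold the lowest. In the 44 libraries, the deviation of LOX from its group mean moved with the GC tilt (Pearson r = -0.57, Spearman rho = -0.56, and r = -0.60 without the 2 most extreme libraries). In the fit with the tilt as a covariate, LOX changed by 1.45 with IL-13 (adjusted p = 8.07e-06), by -1.12 with TNF (0.000653) and by -1.06 with IL-1β (0.000595) on the log2 scale. In the same fit IL-17A (-0.90, adjusted p = 0.0137) and OSM (0.92, adjusted p = 0.0137) also passed. Exons of LOX overlap those of SRFBP1 on the opposite strand, which had at most 93 counts in a library, and whether counting used strand is not stated.

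LOXL2, which acts on collagen IV of basement membranes among other substrates, followed LOX in falling with IL-1β. Unstimulated libraries held 41.1, 30.6, 31 and 32.8 CPM of LOXL2, and IL-1β libraries 17.2, 7.29, 6.35 and 18.2 CPM. The groups did not overlap, and the log2 fold change was -1.46 (SE 0.34, adjusted p = 0.00319 in edgeR). With TNF, LOXL2 was at 10.6, 25, 23.3 and 25.7 CPM, below all unstimulated libraries, with a log2 fold change of -0.68 (SE 0.33) and an adjusted p of 0.203 in edgeR. IL-17A gave the same -0.68 (SE 0.33, adjusted p = 0.38 in edgeR), with libraries between 18.4 and 24 CPM. IL-13, which raised LOX, left LOXL2 between 13.3 and 36.5 CPM (log2 fold change -0.43, 95% interval -1.08 to 0.22). Relative to the unstimulated mean, the log2 ratio of LOX to LOXL2 in single IL-13 libraries was therefore 1.42, 1.69, 1.82 and 2.42, above all unstimulated libraries. The highest group mean of LOXL2 was 38.6 ± 16 CPM with IFNγ, whose libraries ran from 23.3 to 59.8 CPM and overlapped the unstimulated ones.

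The remaining lysyl oxidases were measured with few counts. LOXL1 was highest in unstimulated cells (9.79, 8.75, 9.15 and 8.2 CPM) and lowest with IL-17A (0, 0.78, 0 and 5.74 CPM). These groups did not overlap, but the adjusted p was 0.0868 in edgeR, and 8 of the 44 libraries held at most 3 counts of LOXL1. LOXL1 was also below all unstimulated libraries with IL-1β (4.64 to 5.72 CPM), IL-13 (3.55 to 7.3 CPM), IFNγ (0.867 to 5.27 CPM) and TGF-β1 (2.94 to 7.44 CPM), and none of these 4 passed the test. LOXL3 was at 9.29, 5.4, 14.4 and 8.88 CPM with IL-13 and at 4.9, 0.729, 0 and 4.1 CPM without stimulation (adjusted p = 0.262 in edgeR). The IL-13 libraries held 56 counts of LOXL3 in all, and since LOXL3 was tested through these libraries, their higher level is no support for a difference. LOXL4 summed to 18 counts over the 4 libraries of IL-1β and of OSM, to 1 count each for IL-22 and TGF-β1 and to 0 for TNF, and no fold change is given for it.

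PLOD2, the lysyl hydroxylase that acts on the telopeptides of collagen (chromosome 3, 146035139 to 146163725, minus strand, 20 exons), rose with TGF-β1. Its unstimulated libraries were at 182, 330, 360 and 382 CPM and its TGF-β1 libraries at 528, 398, 453 and 767 CPM. The groups did not overlap, and the log2 fold change was 0.78 (SE 0.24, adjusted p = 0.0407 in edgeR), from 313 ± 90.3 to 536 ± 163 CPM (SD, n = 4 each). The call was lost without unstimulated replicate 1 (log2 fold change 0.59, adjusted p = 0.14), without unstimulated replicate 2 (0.81, 0.083), without TGF-β1 replicate 1 (0.79, 0.0745) and without TGF-β1 replicate 4 (0.59, 0.128). PLOD2 was lowest with IL-13 (177, 219, 160 and 226 CPM). Its unstimulated replicate 1 lay within that range and the other 3 above it (log2 fold change -0.68, SE 0.24, adjusted p = 0.109 in edgeR).

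PLOD2 was the member that moved most closely with the GC tilt. Its transcript is 37.7% GC, and its deviation from the group mean had a Pearson r of -0.84 with the GC tilt over the 44 libraries (Spearman rho = -0.84, and r = -0.81 without the 2 most extreme libraries). Unstimulated replicate 1, with the highest tilt of its group, was the lowest of the unstimulated libraries in PLOD2, and TGF-β1 replicate 4, with the lowest tilt of all libraries at -0.53, was the highest in PLOD2 of all. With the tilt as a covariate, PLOD2 rose by 1.19 with TGF-β1 (adjusted p = 2.19e-07), by 0.89 with TNF (2.41e-05), by 0.81 with OSM (0.00046), by 0.55 with IFNα (0.00719) and by 0.45 with IL-1β (0.0332), and it fell by 0.46 with IL-13 (0.0433), all on the log2 scale. Without the covariate, the log2 fold change was 0.42 for TNF, 0.25 for OSM, 0.21 for IFNα and 0.34 for IL-1β, none of which passed. The tilt differed between groups and came from the same counts, so calls gained with it are no separate support. P4HA2, with a transcript of 45% GC, the median of the tested genes, moved the opposite way with the tilt (r = 0.70, rho = 0.74, and r = 0.65 without the 2 most extreme libraries). P4HA1, at 39.7% GC, had an r of -0.32 (rho = -0.36). For LOXL1, PLOD3, PLOD1, LOXL2 and LOXL3, at 67%, 61.4%, 58.8%, 57.5% and 55.4% GC, r was 0.11, 0.29, 0.16, 0.22 and 0.16. The r of a member thus did not follow its GC content alone.

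**Figure D3:**
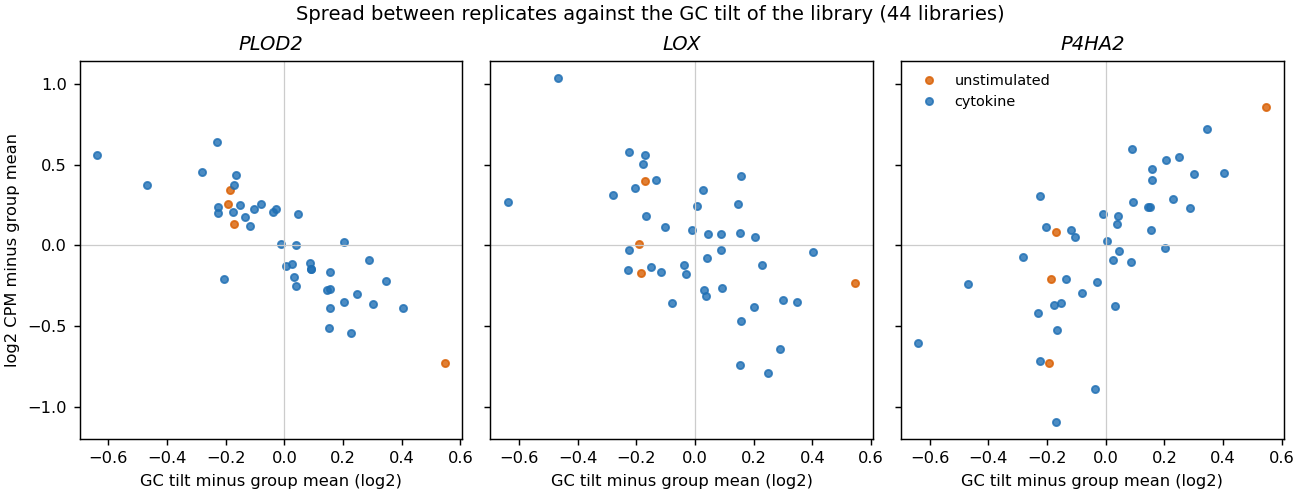
Each point is 1 of 44 libraries, with its GC tilt minus the group mean on the x axis and the log2 CPM of PLOD2, LOX or P4HA2 minus the group mean on the y axis, in orange for unstimulated and blue for cytokine libraries. PLOD2 falls along the tilt (r = -0.84), LOX falls with a wider scatter (r = -0.57) and P4HA2 rises (r = 0.70).

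IL-13 and TGF-β1, both known to drive matrix production in fibroblasts, were compared directly, a contrast in which 12.4% of all genes and 2 members were called. LOX was lower with TGF-β1 than with IL-13 by a log2 difference of -1.70 (SE 0.28, adjusted p = 1.46e-05 in edgeR), and PLOD2 was higher by 1.46 (SE 0.24, adjusted p = 2.05e-05). In neither gene did the libraries of the 2 cytokines overlap. P4HA2 (0.56, 95% interval -0.05 to 1.17) and P4HA1 (-0.06, 95% interval -0.35 to 0.23) did not pass. LOX with TGF-β1 itself, at 241, 227, 192 and 280 CPM, overlapped the unstimulated libraries (log2 fold change -0.38, 95% interval -0.92 to 0.15, and -0.07 with the tilt as a covariate, neither of which passed). Between the interferons, where 9.39% of genes were called, 0 members differed past the threshold, and the difference of LOX between IFNα and IFNγ was -0.06 on the log2 scale (95% interval -0.60 to 0.48).

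The ratio of PLOD2 to LOX within a library is free of library scaling, though both genes moved with the GC tilt, and was computed on the log2 scale relative to the unstimulated mean. The unstimulated libraries were at -0.49, -0.26, 0.25 and 0.51. IL-13 libraries were at -2.31, -2.17, -1.74 and -1.53, all below them. TNF libraries were at 1.42, 1.76, 2.45 and 2.18, IL-1β libraries at 1.62, 1.19, 1.61 and 1.55 and TGF-β1 libraries at 1.13, 0.81, 1.24 and 1.45, all above them. The ratio thus lay above the unstimulated range with TNF, IL-1β and TGF-β1, where the called gene was LOX for the first pair and PLOD2 for TGF-β1. The other 6 cytokines overlapped the unstimulated libraries in this ratio, including IL-17A at 0.29, 1.18, 0.98 and 0.96. The ratio was formed after the values of both genes had been seen and carries no test.

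**Figure D4:**
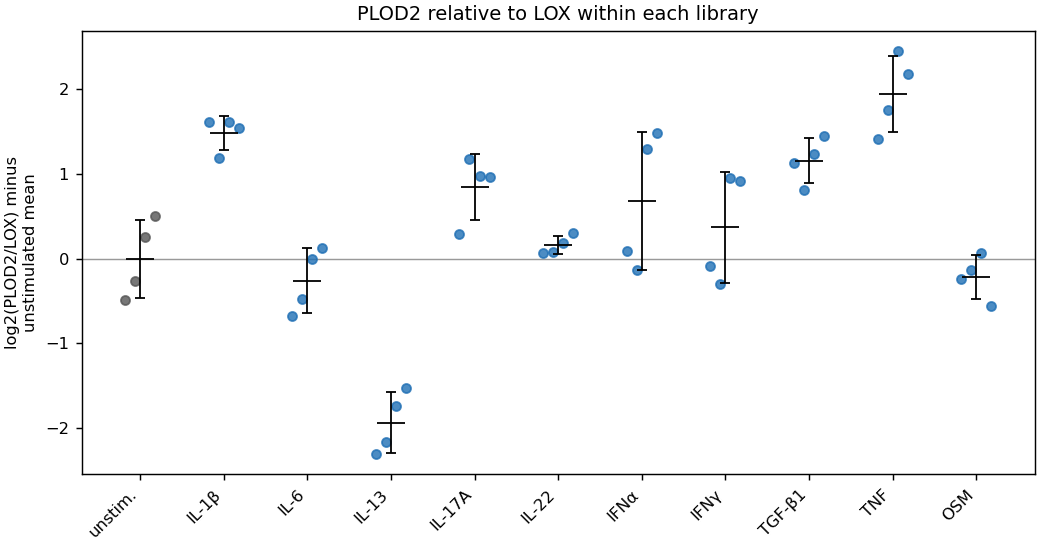
Log2 ratio of PLOD2 to LOX in each library minus the mean of the unstimulated libraries (y axis) for the 11 groups (x axis), with points for libraries and black bars for mean and SD. IL-13 sits at -1.94 ± 0.36, TNF at 1.95 ± 0.45, IL-1β at 1.49 ± 0.20 and TGF-β1 at 1.16 ± 0.27, each apart from the unstimulated points.

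PLOD1 and PLOD3 did not pass in any cytokine comparison. PLOD1 ran from 10.5 ± 1.53 CPM with IL-6 to 24.5 ± 21.8 CPM with TNF, where a single library at 56.8 CPM stood above the others at 10.5 to 17.7 CPM. OSM libraries, at 22.5, 17.8, 19.3 and 23.1 CPM, all lay above the unstimulated 9.48 to 16.2 CPM of PLOD1 (log2 fold change 0.81, SE 0.47, adjusted p = 0.431 in edgeR). PLOD3, which also transfers sugars onto hydroxylysine, was at 3.43 ± 1.99 CPM in unstimulated cells and at most 9.53 ± 3.84 CPM, with IFNα (log2 fold change 1.44, SE 0.58, adjusted p = 0.115 in edgeR). Its exons overlap those of ZNHIT1 on the opposite strand, which reached 157 counts in a library where PLOD3 reached at most 23.

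P4HA2, the second catalytic prolyl 4-hydroxylase subunit (chromosome 5, 132190147 to 132295315, minus strand, 15 exons), rose with TGF-β1. Unstimulated libraries held 157, 91.1, 51.4 and 74.5 CPM, and TGF-β1 libraries 290, 274, 154 and 131 CPM. Both groups overlapped at unstimulated replicate 1, the library with the highest GC tilt of its group. The log2 fold change was 1.17 (SE 0.31, adjusted p = 0.0161 in edgeR), and 0.77 (SE 0.23, adjusted p = 0.0379) with the tilt as a covariate. The call was lost without unstimulated replicate 2, 3 or 4 and without TGF-β1 replicate 1 or 2, with log2 fold changes between 0.98 and 1.16 and adjusted p between 0.0525 and 0.087 in edgeR. When the 8 libraries compared were fitted alone, neither PLOD2 (adjusted p = 0.146 in edgeR) nor P4HA2 (0.0841) passed.

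P4HA1, the main catalytic subunit in many cell types (chromosome 10, 73007217 to 73096974, minus strand, 15 exons), was the steadiest of the abundant members. Its group means ran from 198 ± 15.5 CPM with IL-6 to 294 ± 17.5 CPM with OSM, a 1.48-fold span. In unstimulated libraries it was at 203, 214, 241 and 184 CPM. All OSM libraries (276, 283, 306 and 312 CPM) and all IL-1β libraries (266, 284, 282 and 296 CPM) lay above these. Log2 fold changes were 0.48 (SE 0.15, adjusted p = 0.0549 in edgeR) with OSM and 0.42 (SE 0.15, adjusted p = 0.0803) with IL-1β, neither of which passed. With the tilt as a covariate both passed, at 0.59 (adjusted p = 0.0124) and 0.43 (adjusted p = 0.0332).

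Few partners of these enzymes in collagen assembly were called. Of 24 listed genes, mainly chaperones, hydroxylases and propeptide proteases, 18 were tested. Of these, 2 passed with TNF (beside 11.5% of all genes). With IL-1β (7.38%), IL-13 (3.93%), IL-17A (1.52%), IFNα (9.85%), IFNγ (10.6%) and OSM (3.96%), 1 each passed. With IL-6, IL-22 and TGF-β1, 0 passed. FKBP14, a prolyl isomerase that assists collagen folding, fell with IFNα from 153 ± 37.7 to 75.5 ± 12.2 CPM (adjusted p = 1.19e-05 in edgeR), a call that no alternative removed. It rose with IL-1β to 230 ± 34.7 CPM (adjusted p = 0.0134), a call lost without unstimulated replicate 3 or IL-1β replicate 3, and fell with IL-17A to 95.9 ± 14.5 CPM (0.0221), a call lost in 5 of the 8 fits that left out 1 library. The calls of FKBP14 with IL-1β and IL-17A were also lost without a filter on low counts and with only the libraries compared. P3H2, a prolyl 3-hydroxylase, rose with TNF from 19 ± 6.49 to 56.6 ± 4.87 CPM (adjusted p = 0.00855 in edgeR), which with the tilt as a covariate became 0.0603. PCOLCE, which enhances procollagen C-proteinase, rose with OSM from 13.1 ± 4.43 to 35.4 ± 11.9 CPM (adjusted p = 0.0357), which became 0.265 with the tilt and was lost in 5 of 8 fits without 1 library. PPIB, a prolyl isomerase, passed with IFNγ (log2 fold change 0.72, adjusted p = 0.0125 in edgeR) and TNF (0.64, adjusted p = 0.0289), and with the tilt it passed with neither (0.20 and 0.28, adjusted p = 0.329 and 0.104). Both calls were also lost with only the libraries compared and in fits without 1 library, 3 of 8 for IFNγ and 6 of 8 for TNF. P4HA3, the third catalytic prolyl 4-hydroxylase subunit, was lower with IL-13, at 0.498 ± 0.996 CPM against 7.89 ± 4.27 CPM (adjusted p = 0.00273 in edgeR), a call lost when only the libraries compared were fitted. With TGF-β1, the cytokine with which PLOD2 and P4HA2 rose, 0 of the 18 partners passed in edgeR and their median log2 fold change was 0.36, beside -0.02 over all genes.

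The listed substrate and scaffold genes were called most often with TNF. The list held 17 genes, for fibrillar collagens, elastic fibre proteins, matrix scaffolds, proteoglycans and the copper transporter ATP7A. They are called substrate genes here, though not all are substrates of lysyl oxidases. Of these, 16 were tested, and with TNF 9 of them fell and 0 rose, beside 11.5% of all genes called. Their median log2 fold change with TNF was -0.92 (-0.02 over all genes). COL3A1, a chain of fibrillar collagen III, went from 2593 ± 436 to 1034 ± 227 CPM with TNF (log2 fold change -1.33, SE 0.19, adjusted p = 1.31e-06 in edgeR). Fibronectin (FN1) fell with TNF from 1202 ± 237 to 489 ± 12.3 CPM (adjusted p = 8.6e-06) and the elastic fibre protein FBLN5 from 103 ± 43 to 31.4 ± 10.8 CPM (adjusted p = 0.000224). COL1A1 fell from 10640 ± 3880 to 3498 ± 1790 CPM (adjusted p = 0.00165), with libraries that overlapped the unstimulated ones. With IL-1β (7.38% of all genes called), COL1A1, COL3A1, FN1 and FBLN5 fell (COL1A1 not in 4 of 8 fits without 1 library). The elastin gene ELN rose with IL-1β, from 1.89 ± 1.19 CPM, near the level of 3 counts, to 14.2 ± 4.56 CPM (adjusted p = 0.00899 in edgeR). That unstimulated mean lay under the 6.75 CPM cutoff of the filter on low counts, so ELN may have been tested through groups where it was high. Without the filter, the call of ELN with IL-1β was kept. COL3A1 was at 1285 ± 330 CPM with IL-1β (adjusted p = 0.000148) and FN1 at 563 ± 52.2 CPM (0.000148). The TNF and IL-1β comparisons share their 4 control libraries.

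Substrate genes moved in both directions with TGF-β1, with 3 higher and 4 lower of 16, beside 2.61% and 3.08% of all genes. FN1 rose to 2131 ± 626 CPM (log2 fold change 0.83, adjusted p = 0.00776 in edgeR), POSTN to 733 ± 90.2 CPM from 366 ± 76 CPM (1.00, adjusted p = 0.000584) and ELN to 12.7 ± 5.26 CPM (adjusted p = 0.0214). COL1A2, COL3A1, FBN1 and LUM fell, by 0.58 to 0.80 on the log2 scale. Of these 7 calls, FN1 was lost without TGF-β1 replicate 1, FBN1 and LUM in 2 and ELN in 3 of 8 fits without 1 library, and COL1A2 in 7 of them and with the tilt (adjusted p = 0.111). With only the libraries compared, FN1, FBN1, LUM and COL1A2 were lost, and without a filter on low counts FBN1 and ELN. Beside 3.93% of all genes called with IL-13, 1 substrate gene of 16 passed. It was POSTN, encoding periostin, a scaffold for collagen crosslinking, which rose from 366 ± 76 to 8330 ± 2558 CPM (log2 fold change 4.51, SE 0.22, adjusted p = 3.66e-20 in edgeR). With IFNα (9.85% of all genes called), with which no member passed, COL1A2, COL3A1 and FBN1 fell. POSTN rose with IFNα to 561 ± 121 CPM (adjusted p = 0.0299 in edgeR). Of these calls, COL1A2 and POSTN were lost in 4 and 5 of 8 fits without 1 library, and POSTN also with only the libraries compared. With IFNγ (10.6% of all genes called), COL1A2, COL3A1, COL5A2 and FBN1 fell, of which COL1A2 was lost with only the libraries compared. COL5A2 fell with IFNγ (438 ± 53.1 to 196 ± 72 CPM, adjusted p = 3.95e-05 in edgeR) and with TNF (256 ± 38.6 CPM, 0.00564). COL5A1 was at 0.498 ± 0.345 CPM with TNF and at 41.5 ± 32.5 CPM without stimulation, with overlapping libraries (adjusted p = 0.0218), a call lost when each of the 4 TNF libraries in turn was left out. With OSM (3.96% of all genes called), 1 substrate gene rose, the proteoglycan decorin (DCN, log2 fold change 0.56, adjusted p = 0.00902 in edgeR). This call was lost without OSM replicate 1 and with only the libraries compared. With IL-17A (1.52% of all genes called) 1 fell, FN1 (-0.81, adjusted p = 0.0247 in edgeR), a call lost in 6 of 8 fits without 1 library.

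Among 7 tested genes of iron, copper, ascorbate and oxygen handling, the transferrin receptor TFRC rose with IL-1β (102 ± 19.4 to 173 ± 36.7 CPM, adjusted p = 0.0114 in edgeR) and fell with IFNα (52.5 ± 10.9 CPM, 0.00125). The first of these calls was lost without unstimulated replicate 1 and without IL-1β replicate 1 or 2. SLC31A1, a copper importer, rose with IFNγ (104 ± 15.4 to 180 ± 58.3 CPM, adjusted p = 0.00783), a call lost with the tilt as a covariate (0.226), with only the libraries compared and without IFNγ replicate 4. So 1 of the 7 passed with each of IL-1β, IFNα and IFNγ, beside 7.38%, 9.85% and 10.6% of all genes, and none with another cytokine. LOX, PLOD2, P4HA1 and P4HA2 are known targets of the hypoxia response, so 15 other genes of that response were counted, of which 13 were tested. Of these, 4 were higher with IFNγ (beside 10.6% of all genes), 3 with IFNα (9.85%), 3 with OSM (3.96%), 2 with TNF (11.5%), 1 with IL-1β (7.38%) and 1 with IL-17A (1.52%), and none fell in these comparisons. The count for IFNγ became 2 with the tilt, where BNIP3 and PGK1 were lost, and that for TNF became 1, where LDHA was lost. Of 8 fits without 1 library, BNIP3 was lost in 6 with IFNγ and 4 with IFNα, and LDHA in 5 with TNF. With TGF-β1 (5.69% of all genes called), BNIP3, LDHA and PGK1 rose, and HK2, a hexokinase, fell from 128 ± 45.7 to 51.8 ± 23.9 CPM (adjusted p = 0.00196 in edgeR). Of these calls, BNIP3 was lost when each of the 8 libraries in turn was left out. LDHA, PGK1 and HK2 were lost when only the libraries compared were fitted. CA12, a carbonic anhydrase, rose with IL-1β (24.8 ± 8.38 to 143 ± 14.4 CPM, adjusted p = 9.75e-09), TNF (92.4 ± 27 CPM, 3.58e-06), OSM (86.9 ± 28 CPM, 2.33e-05) and IL-17A (56.2 ± 7.25 CPM, 0.0206, lost in 5 of 8 fits without 1 library). ADM and HK2 rose with IFNα (adjusted p = 0.0257 and 0.0128, lost in 5 and 2 of 8 such fits) and HK2 with IFNγ (280 ± 105 CPM, 0.00218). Fitting only the libraries compared also ended the calls of BNIP3, LDHA and PGK1 with IFNγ and of BNIP3 and ADM with IFNα. It likewise ended those of LDHA with TNF and CA12 with IL-17A. With IL-13, where LOX rose, 0 of the 13 passed in edgeR and their median log2 fold change was 0.11, beside -0.05 over all genes. The part of the hypoxia response in the levels of the members was not tested with any cytokine.

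The members did not form 1 common pattern over the libraries. Of the 36 pairs of tested members, PLOD2 and P4HA1 had the highest Pearson correlation of log2 CPM over the 44 libraries, at 0.426, and LOX and PLOD2 were at -0.262. These values are descriptions over libraries that share groups, depth and base composition. The genes most like LOX were GARS1 (r = 0.873), MTHFD2 (0.863) and ASNS (0.83), which encode glycyl-tRNA synthetase, a mitochondrial folate enzyme and asparagine synthetase. Over the 11 group means LOX and GARS1 had an r of 0.958, and within groups 0.495. Those most like PLOD2 were NRIP3 (0.772), the hyaluronan synthase gene HAS2 (0.767) and TMX3 (0.74). P4HA2 was most like ANXA6 (0.701), CFL1 (0.69) and CNN2 (0.686), and P4HA1 most like STEAP1 (0.644), TNFAIP6 (0.591) and SEC61G (0.583), although STEAP1 had an r of -0.001 with P4HA1 within groups. For LOXL2 they were GPNMB (0.654), FIBIN (0.636) and SLC66A3 (0.58), and for PLOD3 ERGIC3 (0.645), HSPB8 (0.608) and MMP14 (0.606). The highest values for LOXL1, LOXL3 and PLOD1, transcripts of few counts, were 0.577 with ITSN1, 0.552 with EP400 and 0.536 with RUSC1.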

How the data were processed

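RNA was sequenced in bulk from Ccd18-Co cells in 11 groups of 4 libraries. Per the submitters' processing notes, reads were checked with FastQC (version 0.11.9) and MultiQC (version 1.14) and quantified with kallisto (version 0.48.0) on hg38, and the authors deposited estimated counts per gene symbol, unscaled for depth, of which 5.73% are not whole. The kallisto index, how transcripts were summed to symbols and the use of strand are not given in the sources used here, and RNA isolation kits are not tied to libraries. Of 40663 symbols, 16928 were at 0 in all libraries, and 99.23% matched GENCODE release 44. No column of per-sample values was left unused.

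Estimated counts were rounded. edgeR (version 4.0.16, R 4.3.3) kept 9513 genes by filterByExpr with the groups, normalized by TMM and took all 44 libraries into a single quasi-likelihood fit (glmQLFit, glmQLFTest, common biological coefficient of variation 0.331). Benjamini-Hochberg adjustment ran over all genes within a comparison, and a gene passed at an adjusted p under 0.05. SE is the log2 fold change divided by the root of F. Over 66 pairs of replicates, chi-square per degree of freedom was at least 3.21, and 0 pairs were identical. The limit of 3 counts reflects counting error alone, because reads carried no molecular identifiers and may repeat a molecule. In simulated TNF data over 9024 genes, edgeR called 22.3% of genes changed 2-fold and 73% of those changed 4-fold.

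Members and lists were chosen with earlier results of these data known. All 10 members are named. Of the lists, those passing with an absolute log2 fold change above 1 in a cytokine comparison are named, at most 8 per list. Other listed genes named were chosen after their values were seen, as were the motifs, the ratio and the GC tilt. Likeness gives the 3 genes of highest Pearson r per member. Alternatives were DESeq2 (version 1.42.0) and its size factors, no or another filter, only the libraries compared, a replicate block, a log2 fold change above 1.5, leaving out single libraries and the GC tilt as a covariate.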

Additional observations from a re-analysis of the deposited data

Results flagged for a closer look

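In 9 of 109 groups of 4 libraries tested over the members, 1 library stood apart from the other 3 by Dixon's test, where chance gives about 5.45, 1 in 20. PLOD2 was at 335 CPM in IFNγ replicate 2, against 231 to 243 CPM in the other 3 libraries. That library had the lowest GC tilt of its group (-0.18, the others 0.32 to 0.58), and the part of the tilt was not tested. PLOD1 was at 56.8 CPM in TNF replicate 2, against 10.5 to 17.7 CPM, and at 16.2 CPM in unstimulated replicate 1, against 9.48 to 10.6 CPM. LOXL2 was at 10.6 CPM in TNF replicate 1, against 23.3 to 25.7 CPM, and at 22.8 CPM in IL-22 replicate 1, against 27.9 to 28.8 CPM. LOXL1 was at 5.74 CPM (10 counts) in IL-17A replicate 4, against 0 to 0.78 CPM. The other 3 cases were LOXL4 values of few counts, at 0.64 CPM in IL-22 replicate 4 and 1.06 CPM in TGF-β1 replicate 2 (1 count each, with 0 in the other libraries) and at 0 in IFNα replicate 3 (2.76 to 3.29 CPM in the others).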

How the results depend on the processing

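The rise of LOX with IL-13, its fall with IL-1β and TNF and the fall of LOXL2 with IL-1β kept their direction and an adjusted p under 0.05 in every alternative without a fold threshold, including each library left out. With an absolute log2 fold change above 1.5, the number of members passing became 0 for IL-1β, IL-13, TGF-β1 and TNF, and 1 for TGF-β1 against IL-13. Without a filter on low counts (23518 genes) it was 2 for IL-13 (LOX, PLOD2), 1 for IL-17A (LOX) and 3 over all groups. LOX with IL-17A was also the 1 member called by DESeq2, with only the libraries compared and with the replicate block, and P4HA1 with OSM the 1 called with DESeq2's size factors, DESeq2's test, the replicate block or at least 10 counts in at least 4 libraries. With only the libraries compared, 0 members passed for TGF-β1. With the GC tilt as a covariate, chosen after seeing the data, 4 members passed for IL-1β, where 887 of all genes were called, against 702 without it. The count was 2 for IL-13 (707 against 374 genes), 1 for IL-17A (312 against 145) and 1 for IFNα (1107 against 937). For TNF it was 2 (1056 against 1090 genes) and for OSM 3 (344 against 377). For the fits with another filter, by DESeq2 or with fewer libraries, the share of all genes called is not given. In none of the alternatives was the cause tested, beyond the changed number of genes, libraries or terms.

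Leaving out single libraries gave 1 to 2 members for IL-13 (2 without unstimulated replicate 1), 0 to 1 for IL-17A (LOXL1 without IL-17A replicate 4), 0 to 1 for IFNγ (LOX, log2 fold change -0.84, without IFNγ replicate 2), 0 to 2 for TGF-β1 and 0 to 1 for OSM (P4HA1 without unstimulated replicate 3). PLOD2 with IFNα, at 0.21 in all libraries, ran from -0.023 without IFNα replicate 4 to 0.368 without IFNα replicate 1. Over all groups, LOXL2 did not pass without IL-1β replicate 2 or 3 or IFNγ replicate 3, nor P4HA2 without TGF-β1 replicate 1. Deviations from group means had a mean correlation of 0.024 between same-numbered libraries of different groups, and of -0.008 between different-numbered ones. Of 40 same-numbered pairs with unstimulated libraries, 6 had a correlation over 0.1. The highest, 0.281, was between replicate 1 of unstimulated cells and of IL-6. Whether a batch went with the replicate number was not tested. The replicate block left IL-6 at 1 gene called and raised the number in every other comparison. Examples are 145 to 223 for IL-17A, 0 to 12 for IL-22, 541 to 638 for TGF-β1 and 1090 to 1179 for TNF. DESeq2 gave no adjusted p for 5 members with IL-22, 3 each with TGF-β1 and OSM, 2 with IL-17A and 1 with IL-13. Substrate genes called ranged over the alternatives from 8 to 10 for TNF, 3 to 7 for TGF-β1, 4 to 7 for IL-1β, 3 to 6 for IFNγ and 0 to 5 for OSM, those of the hypoxia response from 1 to 5 for IFNγ and 1 to 4 each for TGF-β1 and TNF, those of cofactor handling between 0 and 1, and partners of collagen assembly between 0 and 3. For IL-17A, substrates ran from 0 to 2 and partners from 0 to 1. Depth limited LOXL1, LOXL3, LOXL4 and PLOD3, whose median count per library was at most 8.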
